A study of Homo sapiens with 12 samples.

Results

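The CDK8 kinase module of Mediator was followed by RNA-seq in the human line HUDEP-2, immortalised erythroid precursors that need signals from the Kit receptor to survive and divide. Its members were taken by gene symbol, namely CDK8, CDK19, CCNC, MED12, MED13 and MED13L, which make 6 of the 54628 genes in the count table. All 6 passed the filter on low counts and are among the 15492 genes tested. The study held 12 libraries in 4 groups of 3 replicates, and every group carried a KRAB-dCas9 repressor on a lentiviral vector driven by an EF1a promoter. The guide was either a scrambled control (sgControl) or one directed to an element upstream of EGR1 (sgEGR1). The Kit ligand is stem cell factor (SCF). All cells were expanded with SCF, erythropoietin, dexamethasone and doxycycline, starved for 5 h, and then given PBS or 50 ng/mL of SCF for 1 h.

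Mediator is the large complex that carries information from transcription factors to RNA polymerase II. Its kinase module binds core Mediator reversibly and hinders the contact between Mediator and the polymerase, and its kinase also phosphorylates transcription factors and other regulators. CDK8 and CDK19 are alternative catalytic subunits, cyclin C (CCNC) is their partner, MED12 activates the kinase, and MED13 or MED13L ties the module to the core. In blood cell precursors the module is known as a regulator of signal-dependent and cell identity genes.

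The sgEGR1 guide is shown because it defines the sgEGR1 groups. It matched the plus strand of hg38 at chr5:138464830-138464849, 630 bp upstream of the annotated EGR1 start in GENCODE, and was followed by a CGG PAM. The paper gives a larger distance from the EGR1 start for the targeted element.
sgEGR1: ggatgacagcgatagaaccc

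Library totals ranged from 23.5 to 32.04 megacounts. Expression is given as CPM, counts per megacount of a library total scaled by TMM factors. Erythroid marker genes summed to 6864 to 7628 CPM in every library and 11 of 11 were tested, whereas lymphoid markers summed to at most 0.597 CPM and 0 of 5 were tested. Of the myeloid markers 1 of 6 (SPI1) was tested, with a summed level of 7.73 to 15.8 CPM, and of the megakaryocyte markers 1 of 5 (ITGA2B), with 12.01 to 35.2 CPM. EGR1, which the guide was meant to lower, lay at 203.6 CPM in the library labelled sgEGR1 SCF replicate 3, within the 171 to 239.5 CPM of the sgControl SCF libraries. The other 2 sgEGR1 SCF libraries held 40.4 and 57.4 CPM. Whether the label of replicate 3 is wrong or interference failed there was not tested. Replicate 1 of every group also stood apart, since edgeR called 4116 of 15492 genes between replicate 1 and replicates 2 and 3 (26.6%). The labels name no batch for this, and each group holds 1 library of each number. In bulk RNA, fewer cells of a kind and less RNA per cell cannot be told apart. The study calls the replicates biological, but the labels do not say that they were separate cultures, so the p-values measure the spread between these libraries, which may be technical.

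Of the members, 3 of 6 were called between replicate 1 and the others, all of them lower in replicate 1, where 13.4% of all tested genes were lower. CDK8 was lower by 9.28% (log2 difference -0.14, edgeR adjusted p 0.00153). MED12 and CCNC differed by -0.12 and -0.10 (edgeR adjusted p 0.0144 and 0.0489). CDK8 kept this call in 14 of 14 alternative fits, MED12 in 12 and CCNC in 3. CDK19, MED13 and MED13L differed by 0.04, -0.02 and 0.05 and were not called. Because this difference touches CDK8 directly, the SCF response averaged over guides is given below without and with a term for replicate 1.

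All members were well expressed, and their range between libraries was ordinary for genes of 10 CPM or more. The highest library exceeded the lowest by a factor of 1.19 for CCNC and MED12 to 1.27 for CDK8, against a median of 1.26 over 8717 genes with an average of 10 CPM or more. Their biological coefficients of variation ranged from 0.0517 to 0.0615, with a median of 0.104 over all tested genes, which include genes under 10 CPM. Levels can be compared between genes only per length. Per kb of canonical transcript, CCNC was highest with a mean of 28.8 CPM per kb over 12 libraries, followed by CDK8 (26.4), MED12 (23.3), MED13L (21.1), MED13 (13.4) and CDK19 (9.66). The ranges of neighbours in this order overlapped from CCNC down to MED13L. MED13L, at 18.2 to 22.6 CPM per kb, did not overlap MED13, at 11.6 to 14.2, nor did MED13 overlap CDK19, at 8.58 to 10.4.

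**Figure D1:**
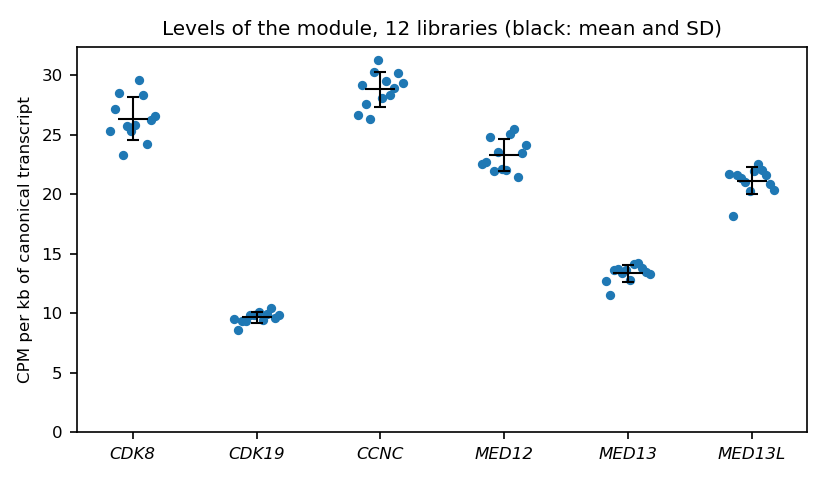
Level of each member in 12 libraries, in CPM per kb of canonical transcript, with 1 blue point per library and black bars for the mean and SD. CCNC and CDK8 lie highest, at means of 28.8 and 26.4, and CDK19 lowest at 9.66.

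The order depended on the length used. Per kb of all annotated exons, CDK8 was highest at 17.0 CPM per kb and MED13L lowest at 6.36, with CCNC at 11.1, MED13 at 11.04, MED12 at 9.30 and CDK19 at 8.09. CDK8 lay above CDK19 on both scales, while MED13 and MED13L changed places. MED12L, the paralog of MED12, held at most 6 counts in any library and 0 counts in 10 of them, so MED12 carried nearly all counts of that pair. Exons of CCNC overlap TSTD3 on the opposite strand over 13.1% of their length, and those of MED13L overlap a non-coding gene over 0.645%. Whether counting used strand is not given in the sources used here, so reads at these places cannot be assigned with certainty. CDK8, CDK19, MED12 and MED13 have no such overlap.

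CDK8 (chr13:26254104-26420982, plus strand, GRCh38) was the member with the lowest log2 fold change after SCF. In sgControl cells CDK8 measured 77.6, 83.3 and 87.4 CPM after PBS and 71.5, 79.0 and 77.7 CPM after SCF in replicates 1, 2 and 3. In sgEGR1 cells it measured 79.2, 90.8 and 86.8 CPM after PBS and 74.2, 80.5 and 81.5 CPM after SCF. Each SCF library lay below the PBS library of the same guide and number, in 6 of 6 such pairs, and replicate 1 was lowest in all 4 groups. Of all tested genes, 22.1% moved one way in all 6 pairs. The replicate numbers were not shown to pair PBS with SCF libraries. Pairs here and below therefore go by label only, and their counts carry no test. PBS and SCF libraries of a guide still overlapped, because PBS replicate 1 was below the highest SCF library.

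**Figure D2:**
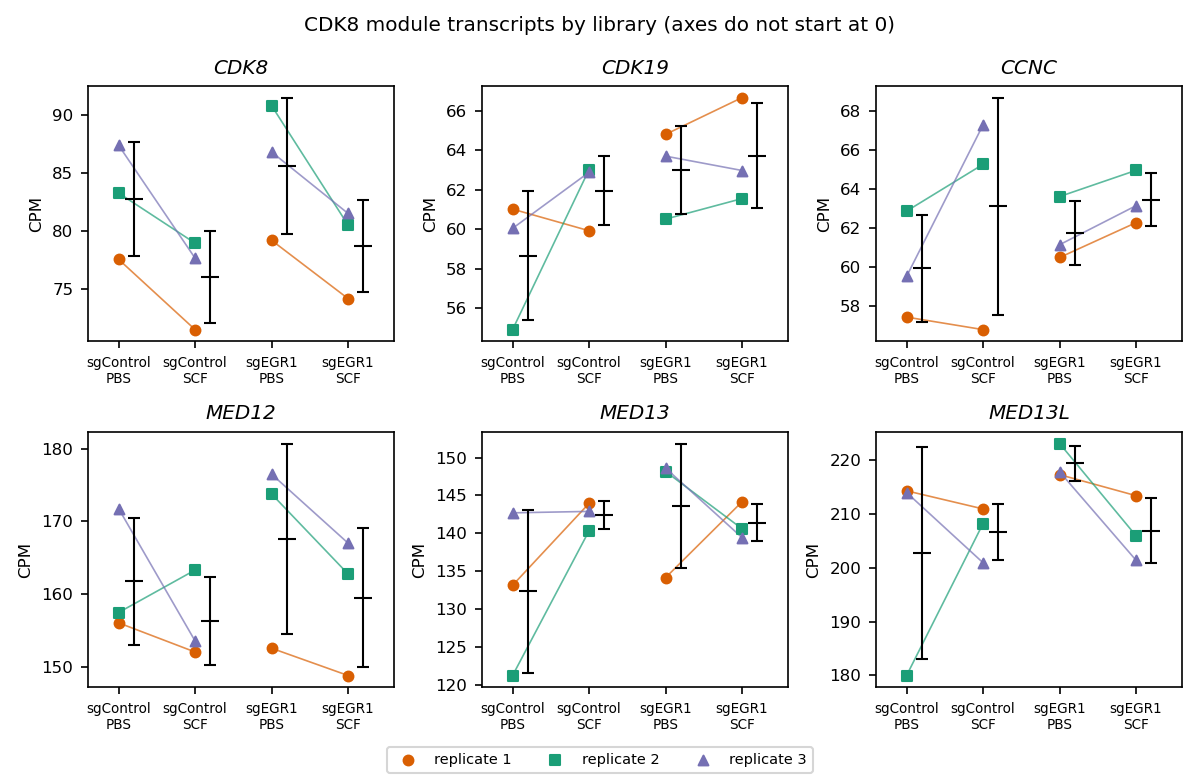
CPM of each member in every library, by guide and treatment. Symbols give the replicate number, thin lines join libraries with the same guide and number, black bars give mean and SD (n = 3), and the axes do not start at 0. CDK8 is lower after SCF along all 6 lines, while the lines of the other members cross or go both ways.

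In sgControl cells the CDK8 mean went from 82.8 ± 4.95 CPM with PBS to 76.0 ± 3.99 CPM with SCF (SD, n = 3), and in sgEGR1 cells from 85.6 ± 5.91 to 78.7 ± 3.99 CPM. Without a term for replicate 1, the log2 fold change was -0.12 in sgControl cells (95% interval -0.27 to 0.02, edgeR adjusted p 0.448) and -0.12 in sgEGR1 cells (95% interval -0.27 to 0.02, edgeR adjusted p 0.432). With 1 library left out, the value in sgControl cells ran from -0.16 to -0.077 (the latter without SCF replicate 1), and that in sgEGR1 cells from -0.17 to -0.074 (the latter without PBS replicate 2). The average over both guides was -0.12, or 8.09% lower, and missed the threshold (SE 0.05, 95% interval -0.22 to -0.02, edgeR p 0.0226, adjusted p 0.135). With the term, CDK8 was called in the average at -0.12 (SE 0.02, 95% interval -0.17 to -0.07, edgeR adjusted p 0.00369), where 18.5% of all tested genes were called and 8.29% were called lower. It was also called in sgControl cells (edgeR adjusted p 0.0460), where 8.32% of genes were called, and in sgEGR1 cells (edgeR adjusted p 0.0484), where 8.56% were called.

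The call in the average did not rest on a single library. With the term and with each of the 12 libraries left out in turn, the average stayed between -0.13 and -0.11 and was called in 12 of 12 fits (edgeR adjusted p 0.00384 to 0.0160). Leaving out sgEGR1 SCF replicate 3, the library with EGR1 at the level of sgControl SCF libraries, gave -0.12 (edgeR adjusted p 0.0107). Replicates 2 and 3 alone gave -0.13 (edgeR adjusted p 0.0318), with replicate 1 absent. The calls within single guides were weaker. In sgControl cells and in sgEGR1 cells, 1 of 12 such fits kept the call, that without sgControl PBS replicate 2, and the adjusted p reached 0.171 and 0.213. The value in sgEGR1 cells, with SCF replicate 3 left out, was -0.12 (edgeR adjusted p 0.125). Across the 19 alternatives to the fit without the term, the adjusted p of the average ranged from 0.00369 to 0.307 and CDK8 was called in 4.

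An exact two-sided permutation test on log2 CPM, with treatment labels permuted within each guide, gave p 0.0450 for CDK8 over 400 arrangements. The same test gave 0.205 to 0.645 for the other 5 members. When labels were also kept within replicate 1 and within replicates 2 and 3, CDK8 reached p 0.0139, the smallest that 144 arrangements allow. MED12 and CCNC then gave exact p 0.0556 each, and the others 0.181 to 0.625. These 6 p-values per test are not adjusted. Within 1 guide, 3 against 3 libraries cannot go below an exact p of 0.1, and CDK8 gave 0.3 in each guide.

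**Figure D3:**
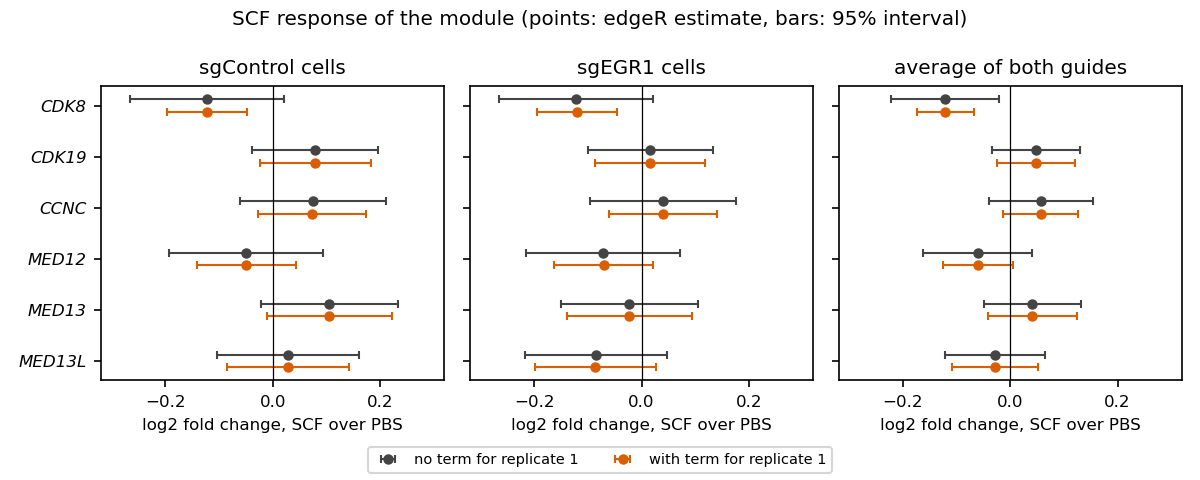
Log2 fold change of each member, SCF over PBS, in sgControl cells, in sgEGR1 cells and in the average of both, with 95% intervals. Grey is the fit without and orange the fit with a term for replicate 1, and of the orange intervals only those of CDK8 exclude 0 in all 3 panels.

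The promoter of CDK8 is shown because CDK8 was the only member called for SCF, and that only in some fits. The fit without a term for replicate 1 did not call it. It runs from 250 bases before to 50 bases after the start of the RefSeq entry, at chr13:26253879-26254178 on the plus strand of GRCh38.p14. Motifs were searched on both strands as GCGTGGG for EGR factors, TGANTCA for AP-1, CGGAAG for ETS factors and AGATAA for GATA factors. The CDK8 window held none of these letters, so no base is in capitals. The paper also describes a Kit-responsive element in an intron of CDK8, with EGR1 and JUNB bound there in published data. That element was not searched here, so the window does not speak for the whole gene. Of 35116 human promoters of this length, 6.98% held the EGR letters, 7.71% the AP-1 letters, 19.5% the ETS letters and 10.3% the GATA letters.
CDK8: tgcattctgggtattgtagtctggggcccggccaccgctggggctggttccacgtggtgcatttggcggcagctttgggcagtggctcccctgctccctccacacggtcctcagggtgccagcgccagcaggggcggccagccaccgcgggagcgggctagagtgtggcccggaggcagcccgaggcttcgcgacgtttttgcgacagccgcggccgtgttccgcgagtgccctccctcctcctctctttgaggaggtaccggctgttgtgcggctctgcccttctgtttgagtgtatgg

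CDK19 (chr6:110609978-110815958, minus strand), the other kinase, was called in none of the SCF comparisons. It measured 61.0, 54.9 and 60.0 CPM after PBS and 59.9, 63.0 and 62.9 CPM after SCF in sgControl cells. The CDK19 values in sgEGR1 cells were 64.8, 60.5 and 63.7 CPM after PBS and 66.7, 61.6 and 63.0 CPM after SCF. The groups overlapped, and 4 of 6 same-numbered pairs were higher after SCF. The average log2 fold change was 0.05 (95% interval -0.03 to 0.13, edgeR adjusted p 0.523), so a change of CDK19 beyond about 9.44% upward or 2.39% downward lies outside the interval. With the term for replicate 1 it was 0.05 (edgeR adjusted p 0.370).

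CDK19 was the only member whose promoter entries held the EGR letters, in 2 of its 3 RefSeq entries. Both lie on the minus strand of GRCh38.p14, at chr6:110815806-110816105 and chr6:110815588-110815887, with the match in capitals beginning 117 and 141 bases before the respective start. Entries of CCNC, MED12 and MED13L held none of the 4 motifs, and MED13 was not among the entries used here. CDK19 had more entries than any other member, so more bases were searched for it. A match is a run of letters and does not show that a factor binds there. The guide comparisons of CDK19 are given further on.
CDK19 entry 1: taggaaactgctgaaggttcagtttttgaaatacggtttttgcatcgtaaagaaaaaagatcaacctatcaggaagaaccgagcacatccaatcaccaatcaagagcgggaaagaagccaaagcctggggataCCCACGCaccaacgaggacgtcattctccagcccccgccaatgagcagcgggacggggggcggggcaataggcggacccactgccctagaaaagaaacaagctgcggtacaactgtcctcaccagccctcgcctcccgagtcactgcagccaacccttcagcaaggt
CDK19 entry 2: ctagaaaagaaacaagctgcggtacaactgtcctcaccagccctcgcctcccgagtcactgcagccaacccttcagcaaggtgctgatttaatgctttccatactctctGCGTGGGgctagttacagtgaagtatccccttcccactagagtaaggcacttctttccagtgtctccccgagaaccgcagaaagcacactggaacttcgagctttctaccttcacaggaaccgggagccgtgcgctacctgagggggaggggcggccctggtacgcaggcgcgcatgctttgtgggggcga

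Since the kinases are alternatives in the same module, their ratio was formed within each library, where scaling between libraries does not enter. In sgControl cells CDK8 had 1.27, 1.52 and 1.46 counts per count of CDK19 after PBS and 1.19, 1.253 and 1.23 after SCF in replicates 1, 2 and 3. In sgEGR1 cells they went from 1.22, 1.501 and 1.36 with PBS to 1.11, 1.31 and 1.29 with SCF. All 6 same-numbered pairs were lower after SCF. In sgControl cells the PBS and SCF ratios did not overlap, and in sgEGR1 cells they did. How often other gene pairs do so was not counted, and the ratio reuses the CDK8 values above. Per kb of exon, CDK8 made up 69.4% ± 1.98 (SD, n = 3) of the pair after PBS and 66.4% ± 0.560 after SCF in sgControl cells, and 68.6% ± 2.22 and 66.6% ± 2.04 in sgEGR1 cells. The average shift was -2.54 percentage points (exact permutation p 0.05 within guides, and 0.0139 when also within replicate 1 and the others). The latter is the smallest that 144 arrangements allow, and neither is adjusted. The difference between guides was -0.349 points (exact permutation p 0.715).

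CCNC (chr6:99542387-99568825, minus strand) encodes the cyclin that both kinases need. It measured 57.4, 62.9 and 59.5 CPM after PBS and 56.8, 65.3 and 67.3 CPM after SCF in sgControl cells. The CCNC values in sgEGR1 cells were 60.5, 63.6 and 61.1 CPM after PBS and 62.3, 64.95 and 63.1 CPM after SCF. The groups overlapped and 5 of 6 pairs were higher after SCF, in the direction opposite to CDK8. The average log2 fold change was 0.06 (95% interval -0.04 to 0.15, edgeR adjusted p 0.509), and with the term for replicate 1 it was 0.06 (edgeR adjusted p 0.267).

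MED12 (chrX:71118543-71144103, plus strand) encodes the subunit that activates the kinase bound to cyclin C. It measured 156, 157 and 172 CPM after PBS and 152, 163 and 154 CPM after SCF in sgControl cells. The MED12 values in sgEGR1 cells were 153, 174 and 176 CPM after PBS and 149, 163 and 167 CPM after SCF. PBS and SCF libraries overlapped in both guides, and 5 of 6 pairs were lower after SCF. The average log2 fold change was -0.06 (95% interval -0.16 to 0.04, edgeR adjusted p 0.504), and with the term for replicate 1 it stayed uncalled (edgeR adjusted p 0.196).

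MED13 (chr17:61942605-62065278, minus strand) and MED13L (chr12:115957905-116277693, minus strand) encode the alternative links to core Mediator. In sgControl cells MED13 measured 133, 121 and 143 CPM after PBS and 144, 140.3 and 143 CPM after SCF. In sgEGR1 cells it measured 134, 148 and 149 CPM after PBS and 144, 141 and 139 CPM after SCF. Replicates 2 and 3 of sgEGR1 cells thus lay lower after SCF, and the other 4 pairs lay higher. The average log2 fold change of MED13 was 0.04 (95% interval -0.05 to 0.13, edgeR adjusted p 0.631), and the term for replicate 1 left it at 0.04 (edgeR adjusted p 0.512).

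MED13L measured 214, 179.9 and 214 CPM after PBS and 211, 208 and 201 CPM after SCF in sgControl cells. In sgEGR1 cells it measured 217, 223 and 218 CPM after PBS and 213, 206 and 201 CPM after SCF. There all PBS libraries lay above all SCF libraries, which made MED13L the 1 of 6 members without overlap, while 21.2% of all tested genes had none. The log2 fold change in sgEGR1 cells was -0.08 (95% interval -0.22 to 0.05, edgeR adjusted p 0.581) and the exact permutation p was 0.1, the smallest for 3 against 3. In sgControl cells 0 of 6 members were without overlap, against 19.6% of all tested genes. The average over both guides was -0.03 (95% interval -0.12 to 0.06, edgeR adjusted p 0.768), and -0.03 with the term for replicate 1 (edgeR adjusted p 0.655).

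The ratio of MED13 to MED13L lay higher after SCF in 5 of 6 pairs and was level in the pair of sgControl replicate 2, although neither gene was called. In sgControl cells MED13 had 0.621, 0.674 and 0.667 counts per count of MED13L after PBS and 0.682, 0.674 and 0.711 after SCF. In sgEGR1 cells they went from 0.617, 0.664 and 0.682 with PBS to 0.675, 0.683 and 0.692 with SCF. Replicate 1 was lowest in both PBS groups, and the level pair differed by less than 0.01 of a percentage point in share. Per kb of exon, MED13 made up 62.9% ± 1.04 (SD, n = 3) after PBS and 64.1% ± 0.647 after SCF in sgControl cells, and 62.9% ± 1.21 and 63.9% ± 0.284 in sgEGR1 cells. The average shift was 1.13 points (exact permutation p 0.0150 within guides, and 0.0139 when also within replicate 1 and the others). The latter is again the smallest possible, neither is adjusted, and how often other gene pairs shift so was not counted. With canonical lengths MED13 made up 38.2% and 39.4% in sgControl cells and 38.2% and 39.2% in sgEGR1 cells, so the shift kept its size but the larger partner changed.

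**Figure D4:**
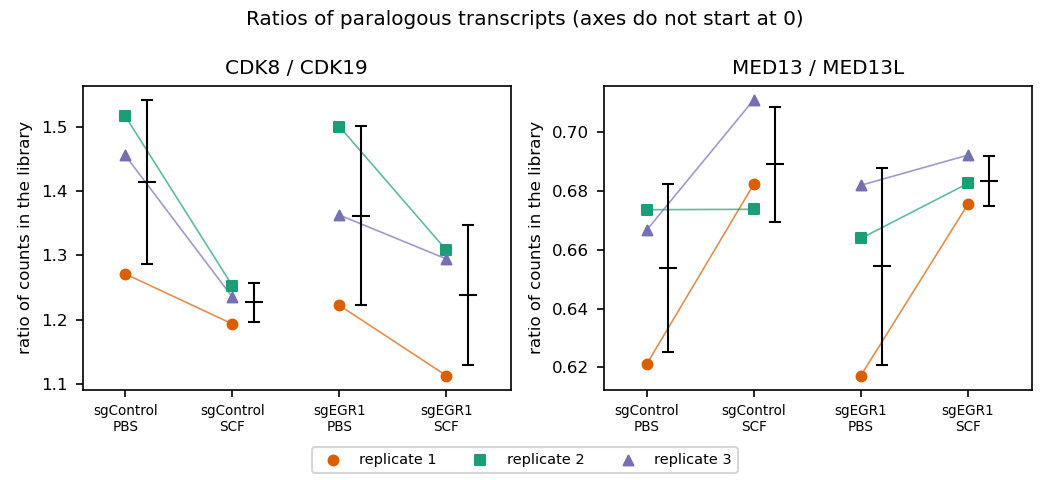
Ratio of deposited counts within each library for CDK8 over CDK19 (left) and MED13 over MED13L (right), drawn as in the plot of CPM by library, with mean and SD (n = 3) in black and axes that do not start at 0. The ratio of CDK8 to CDK19 is lower after SCF along all 6 lines, and that of MED13 to MED13L is higher or, for sgControl replicate 2, level.

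Over the whole module, edgeR without a term for replicate 1 called 0 of 6 members for SCF in sgControl cells, where 2.89% of tested genes were called, with 0 members at an unadjusted p under 0.05. In sgEGR1 cells it called 0 of 6 against 2.59% of genes, again with 0 at an unadjusted p under 0.05. In the average it called 0 of 6 against 9.03% of genes, with 1 member, CDK8, at an unadjusted p under 0.05. DESeq2 also called 0 members in each, against 6.23% of genes in sgControl cells, 6.35% in sgEGR1 cells and 13.4% in the average, of those it gave an adjusted p. The median log2 fold change of the module in the average was 0.0063, beside -0.0045 over all tested genes, with 3 members above and 3 below 0. With the term, the only member called was CDK8.

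The guide comparison asked whether interference at EGR1 changed the module in either treatment. EGR1 itself averaged 8.10 ± 2.51 CPM (SD, n = 3) in sgControl cells and 1.38 ± 0.580 CPM in sgEGR1 cells after PBS. After SCF it averaged 206 ± 34.0 and 100 ± 89.7 CPM. Without a replicate block edgeR called no gene in either treatment, so the guide's own target missed the threshold too. In the PBS groups edgeR called 0 of 6 members and 0% of tested genes, with 0 members and 715 genes at an unadjusted p under 0.05, and DESeq2 called 0 members and 20 genes (0.129%). After SCF edgeR called 0 of 6 and 0% of genes, with 0 members and 361 genes at an unadjusted p under 0.05, and DESeq2 called 0 members and 5 genes (0.0323%). The replicate block, which the residuals allowed for these comparisons, also called 0 of 6 members, against 0.0129% of genes after PBS and 0.0129% after SCF. At an unadjusted p under 0.05 the block gave 2 members, CDK19 and MED13, and 1585 genes after PBS, and 0 members and 875 genes after SCF. For the average guide difference edgeR called 0 of 6 and 0% of genes, and the block called 0 of 6 and 0.316% of genes, with 1 member, CDK19, and 1821 genes at an unadjusted p under 0.05. When the library labelled sgEGR1 SCF replicate 3 was left out of the block fit, 42 genes were called after PBS (0.265%), 30 after SCF (0.19%) and 178 in the average (1.12%), and still 0 of 6 members.

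All 6 members lay higher in sgEGR1 cells after PBS, as did 7782 of 15492 tested genes. The members share the same libraries, so this count carries no test. Their log2 differences ran from 0.04 for CCNC to 0.12 for MED13, against a median of 0.0006 over all tested genes. These values moved when 1 library was left out. Without sgControl PBS replicate 2 those of CDK19 and MED13 were 0.056 and 0.057, and without sgEGR1 PBS replicate 2 that of CDK8 was 0.00092. Over such fits they ran up to 0.13 for CDK19, 0.18 for MED13 and 0.0995 for CDK8, from 0.014 to 0.077 for CCNC and from 0.013 to 0.11 for MED12. MED13L averaged 203 ± 19.8 CPM (SD, n = 3) in sgControl cells and 219 ± 3.21 CPM in sgEGR1 cells, a log2 difference of 0.11 (95% interval -0.02 to 0.25, edgeR adjusted p 0.999). Without sgControl PBS replicate 2, its lowest library at 179.9 CPM, the difference was 0.033. The block gave 0.12 for MED13L (95% interval -0.0017 to 0.23, edgeR adjusted p 0.498). It was again the 1 of 6 members without overlap, against 9.31% of tested genes. CDK19, the gene with the EGR letters in its promoter entries, averaged 58.7 ± 3.29 and 63.0 ± 2.23 CPM and overlapped, at 0.10 (95% interval -0.01 to 0.22, edgeR adjusted p 0.999), and the block gave 0.10 (95% interval 0.0026 to 0.20, edgeR adjusted p 0.476). After SCF the differences ran from -0.01 for MED13 to 0.05 for CDK8, and 0 of 6 members were without overlap, against 7.14% of tested genes. CDK8 differed by 0.05 after both treatments, with 95% intervals of -0.09 to 0.19.

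Whether the guide altered the response was tested as an interaction, the SCF effect under sgEGR1 less the SCF effect under sgControl. edgeR called 0 of 6 members and 0% of tested genes, with 0 members and 306 genes at an unadjusted p under 0.05, and DESeq2 called 0 members and 4 genes (0.0258%). For CDK8 the interaction was 0.0008 on the log2 scale with a 95% interval of -0.20 to 0.20, so the estimates were alike but differences up to that size lie within the interval. These fits include the library labelled sgEGR1 SCF replicate 3, whose EGR1 level lay within that of the sgControl SCF libraries. Without that library the CDK8 interaction was -0.024, and edgeR called 2 genes and 0 members. The values furthest from 0 were those of MED13 and MED13L, at -0.13 (95% interval -0.31 to 0.05) and -0.11 (95% interval -0.30 to 0.07), with edgeR adjusted p 1 each. Without sgControl PBS replicate 2 they were -0.068 and -0.032.

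The rest of Mediator gives the surroundings of these values. All 26 other subunits listed were tested, and in the average SCF response edgeR called 1 higher and 1 lower, 2 of 26 where 9.03% of all tested genes were called. MED26, a subunit found on core Mediator when the kinase module is absent, rose by 0.32 on the log2 scale (SE 0.05, edgeR adjusted p 0.00111). Its means with PBS and SCF were 31.4 ± 1.89 and 37.0 ± 1.99 CPM (SD, n = 3) in sgControl cells and 28.7 ± 1.70 and 37.9 ± 0.545 CPM in sgEGR1 cells. On the same strand, 1 other annotated gene alone covers 27.2% of MED26 exons and another 13.2%, so its count is uncertain. The cover by all such genes together was not computed. MED15, a tail subunit that activators contact, fell by 0.17 (SE 0.04, edgeR adjusted p 0.0269). With the term for replicate 1, 4 of the 26 were called higher and 2 lower, where 18.5% of all tested genes were called.

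**Figure D5:**
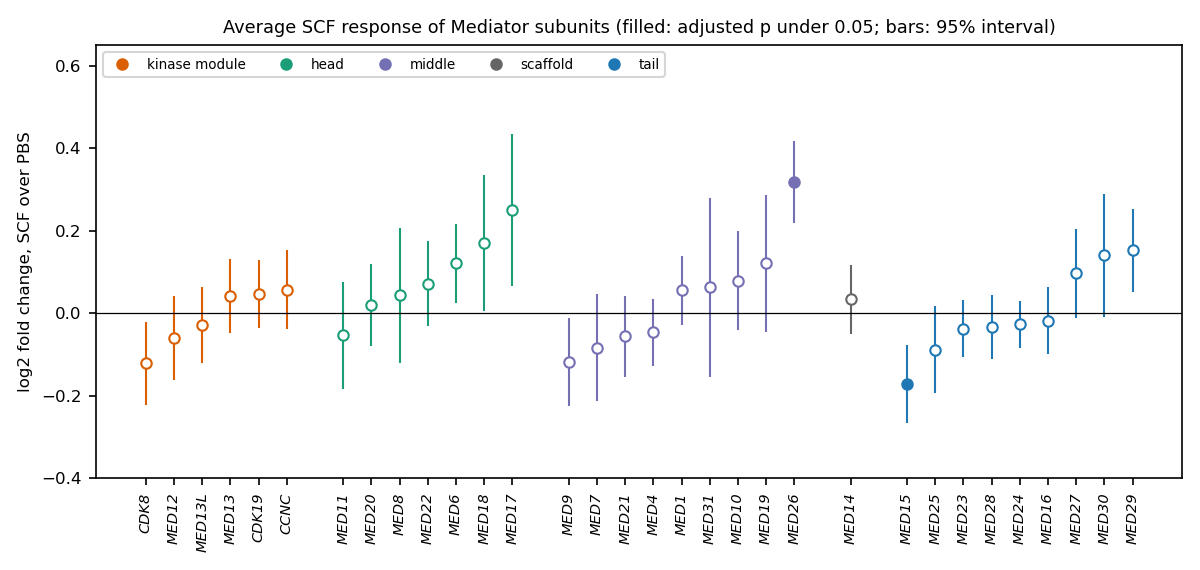
Average log2 fold change of SCF over PBS for the 6 members and 26 other Mediator subunits, from the fit without a term for replicate 1, with 95% intervals and grouped by part of the complex. Filled points passed the adjusted threshold, which were MED26 at 0.32 and MED15 at -0.17, and none of the kinase module did.

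Among 11 genes of the other transcription kinases, 10 were tested and CDK7 was listed at 0 in all 12 libraries. CCNH and MNAT1, listed with it, averaged 38.0 and 24.4 CPM. Whether the 0 of CDK7 means absence or comes from how reads were assigned to genes was not tested. In the average SCF response edgeR called 2 higher and 0 lower, against the same 9.03% of all tested genes. These were the cyclins of P-TEFb, the kinase that releases paused polymerase, namely CCNT1 at 0.17 (SE 0.04, edgeR adjusted p 0.0180) and CCNT2 at 0.22 (SE 0.04, edgeR adjusted p 0.00543). The means of CCNT1 with PBS and SCF were 68.4 ± 2.62 and 79.1 ± 4.46 CPM (SD, n = 3) in sgControl cells and 69.7 ± 4.14 and 76.6 ± 1.83 CPM in sgEGR1 cells. With the term for replicate 1, 4 of the 10 were called higher and 1 lower, against 18.5%. A test of CDK8 against these genes was not run.

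The genes whose pattern was most like each member were sought among 9861 genes whose mean was 5 CPM or more, by Pearson correlation of log2 CPM over 12 libraries after the mean of the libraries with the same number was taken off. For CDK8 they were TNKS (r 0.953, Spearman's rho 0.923), LIN54 (0.953, 0.937) and KLHL24 (0.951, 0.909). For the others they were EFCAB14 with CDK19 (0.937, 0.853), MED27 with CCNC (0.963, 0.888), HDLBP with MED12 (0.965, 0.972), DUSP16 with MED13 (0.948, 0.846) and HERC1 with MED13L (0.981, 0.937). These are the highest of 9861 values each and share their libraries and depth, so they describe the table and carry no test. MED27 is itself a Mediator subunit, of the tail.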

How the data were processed

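RNA-seq was made from 12 HUDEP-2 libraries. Paired-end reads had been aligned to hg38 by HISAT. From StringTie the authors deposited an estimated count for each gene, not scaled for depth or length, with 1 library per column. Annotation release and strand setting of counting are not given in the sources used here, and labels and methods name different kits. The column code SG2 was read as sgEGR1, the only guide besides the control. The table held 0 values that were not whole, so rounding changed none, and 0 columns without a sample.

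Genes kept by filterByExpr were scaled by TMM and tested in edgeR 4.0.16 (R 4.3.3) by quasi-likelihood. Each group had 1 coefficient, and all 12 libraries shared the spread. Calls used a Benjamini-Hochberg adjusted p under 0.05 over all tested genes, without a minimum fold. Log2 CPM used a prior count of 2. A floor of 3 counts was taken for detection. The code was tested on simulated counts. DESeq2 1.42.0, other size factors, no filter, a replicate block, a term for replicate 1, replicates 2 and 3 only and each library left out were the alternatives.

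Residuals of same-numbered libraries correlated at 0.103 to 0.232 between guides after PBS and 0.102 to 0.269 after SCF, all above 0.1, so the block is given with the guide comparisons. Lengths and positions came from GENCODE, promoters from RefSeq. Named were all members, EGR1 and MED12L, up to 5 called genes per list with the largest change, and the genes most like each member. The members and lists were chosen with earlier results of these data known.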

Additional observations from a re-analysis of the deposited data

How the results depend on the processing

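The replicate numbers were not shown to pair the libraries of the SCF comparisons, since residuals of same-numbered libraries correlated at 0.00766 to 0.272 in sgControl cells and 0.0620 to 0.230 in sgEGR1 cells. With the replicate block edgeR called 1184 genes for SCF in sgControl cells (448 without it), 1235 in sgEGR1 cells (402) and 2799 in the average (1399). The block called 1 member, CDK8, in that average and the fit without it called 0. For the guide the block called 2 genes after PBS, 2 after SCF and 49 in the average, where the fit without it called 0. The block changed no other call of a member. The term for replicate 1 gave 1289, 1326 and 2868 genes for SCF with 1 member, CDK8, in each, and 4, 2 and 58 for the guide. Replicates 2 and 3 only gave 690 genes for SCF in sgEGR1 cells, 1 member in the average, 3, 2 and 12 genes for the guide and 2 for the interaction. DESeq2 gave 759 and 773 genes for SCF in sgControl and sgEGR1 cells, 20, 5 and 28 for the guide and 4 for the interaction. No filter gave 1 gene for the guide after PBS and 1 in its average. The replicate block less sgEGR1 SCF replicate 3 gave 1143, 643 and 2269 genes for SCF (1 member, CDK8, in the average), 42, 30 and 178 for the guide and 2 for the interaction. The cause of these differences in counts was not tested.

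Some uncalled values near 0 changed sign. For the guide after SCF, replicates 2 and 3 only gave -0.023 for CDK19, -0.057 for CCNC and -0.013 for MED13L on the log2 scale, and -0.017 for CCNC in the guide average. No filter gave -0.0040 for MED13L after SCF. The interaction of CDK8 became -0.0016 with other size factors, -0.0018 with DESeq2, -0.0084 without a filter and -0.010 with replicates 2 and 3 only. The replicate block less sgEGR1 SCF replicate 3 gave MED13 0.019 for SCF in sgEGR1 cells and 0.025 for the guide after SCF.

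With 1 library left out at a time, edgeR called 194 to 448 genes for SCF in sgControl cells (194 without sgControl PBS replicate 3), 176 to 428 in sgEGR1 cells (176 without sgEGR1 PBS replicate 2), 0 to 1 for the guide after PBS, 0 to 2 after SCF, 0 to 22 in the guide average and 0 to 2 for the interaction. The last 3 maxima came without the library labelled sgEGR1 SCF replicate 3. Members called between replicate 1 and the others ranged from 1 to 3, and MED13 there from -0.041 to 0.024. Log2 fold changes after SCF ran from -0.051 to 0.073 for MED13L in sgControl cells, and in sgEGR1 cells from -0.014 to 0.044 for CDK19 and -0.069 to 0.0022 for MED13. Guide differences after SCF ran from -0.068 to 0.058 for CCNC, -0.0081 to 0.078 for MED12 and -0.021 to 0.017 for MED13L, and the guide average of CCNC from -0.014 to 0.050. Interactions ran from -0.053 to 0.046 for CDK8, -0.11 to 0.014 for CCNC and -0.086 to 0.027 for MED12. Average SCF responses ran from 0.026 to 0.065 for CDK19, 0.034 to 0.095 for CCNC, -0.091 to -0.034 for MED12, 0.013 to 0.070 for MED13 and -0.067 to -0.0052 for MED13L. The SCF response of CDK8 was negative in every alternative run, and the shifts of both paralog shares kept their direction, at -3.11 to -1.95 points for CDK8 and 0.793 to 1.38 points for MED13. Fits with the term for replicate 1 that also left out a library, permutations within replicate 1 and the others, and canonical lengths were chosen after seeing the data. At these totals, the 95% intervals of the members' SCF responses within a guide reached from -16.8% to 17.5%.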
